A study of Mus musculus with 21 samples.

Results

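Crypt stem cell and Wnt target genes were taken here as 10 genes, Lgr5, Ascl2, Axin2, Smoc2, Ephb2, Sox9, Myc, Rnf43, Cd44 and Lrig1. They are 10 of the 27499 genes named on the arrays used at day 0 and of the 24191 named on those used at day 7. All non-control probes annotated to them were collected, which gave 22 of the 56605 probes at day 0 and 16 of the 55681 probes at day 7. The brightest probe of each gene carried the comparisons. Total colon RNA came from male germ-free (GF) C57BL/6J mice that were labelled either Card9-/- or WT. Card9 encodes an adaptor of pattern recognition receptors in myeloid cells. At day 0, before dextran sulfate sodium (DSS), 7 arrays were labelled GF Card9-/- and 6 were labelled GF WT. At day 7, after drinking water with 2% DSS for 7 days, 4 arrays carried each label. The study states an age for germ-free mice that it colonized with microbiota, and the sources used here give no age for the uncolonized mice measured and no source for the Card9-/- germ-free line.

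In the colon, Wnt ligands and R-spondins from cells around the crypt base keep stem cells dividing. Lgr5 is a receptor for R-spondins that marks these stem cells, and Ascl2 is a transcription factor of the stem cell program. Axin2 and Rnf43 are Wnt targets that feed back to dampen the pathway, through degradation of beta-catenin and removal of Wnt receptors, respectively. Smoc2 is a secreted matrix protein of crypt base cells, Ephb2 a receptor that helps to position cells along the crypt, Sox9 a crypt transcription factor, Myc the Wnt-driven regulator of growth, Cd44 a hyaluronan receptor and Lrig1 a brake on growth factor receptors. DSS injures the colon epithelium, and crypt cells rebuild it. Some of these genes are also expressed outside the epithelium, Cd44 in leukocytes and fibroblasts among them.

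The probes that the results turn on are shown by their first 30 of 60 bases, read from the array files, with the NCBI37 position of the whole probe. They show that Lgr5, Ascl2, Smoc2 and Myc were read by 1 and the same brightest probe on both array designs, and that Axin2 was not. No letters are in capitals, because no part of a probe was singled out.
Lgr5, both days, chr10:114887403-114887462, minus strand: catgtaaatacgtagtgcttgtaaatagat
Ascl2, both days, chr7:150152734-150152793, minus strand: ggccagtgtgggaaccctgctgttgcaaag
Smoc2, both days, chr17:14541664-14541723, plus strand: gctcatgtcaatgctgtctacaaacgagta
Myc, both days, chr15:61821417-61821476, plus strand: aacagttgaaacacaaactcgaacagcttc
Axin2, day 0, chr11:108811980-108812039, plus strand: ttctactttagactgtaaattatgcattat
Axin2, day 7, chr11:108812034-108812093, plus strand: cttggtacaataattattgtaattaagaga

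Promoter windows from RefSeq (build GRCm38.p6, 250 bases before the gene start to 50 after it) were matched for 6 of the 10 genes, Ascl2, Axin2, Cd44, Ephb2, Lrig1 and Rnf43. Shown are the windows of Ascl2, which varied together with Lgr5 below, and of Axin2, the classical Wnt feedback gene, with the GC box letters GGGCGG (searched on both strands) in capitals.
Ascl2, chr7:142969215-142969514, minus strand: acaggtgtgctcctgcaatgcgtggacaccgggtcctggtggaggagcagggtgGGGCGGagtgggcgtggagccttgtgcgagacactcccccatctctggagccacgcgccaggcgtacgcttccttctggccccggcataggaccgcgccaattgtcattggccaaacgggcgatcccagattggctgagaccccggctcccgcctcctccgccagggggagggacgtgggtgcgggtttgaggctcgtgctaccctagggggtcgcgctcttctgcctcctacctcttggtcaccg
Axin2, chr11:108920099-108920398, plus strand: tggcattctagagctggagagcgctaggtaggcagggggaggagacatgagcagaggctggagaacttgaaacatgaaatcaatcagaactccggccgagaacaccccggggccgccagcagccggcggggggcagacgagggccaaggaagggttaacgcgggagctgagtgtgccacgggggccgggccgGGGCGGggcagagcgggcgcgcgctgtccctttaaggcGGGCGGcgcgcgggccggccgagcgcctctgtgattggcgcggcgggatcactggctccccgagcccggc

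The GC box lies 196 bases before the start of Ascl2, and 58 and 20 bases before that of Axin2. It was in the windows of 4 of the 6 genes and in 35.7% of all 32851 promoter windows. The letters CTTTG, the core of the site bound by the TCF/LEF factors of the Wnt pathway, were also searched on both strands. They can share 1 letter with the GC box. They were in the windows of 1 of the 6 genes, Cd44, and in 53.9% of all windows. These matches are descriptions of letters in a short window.

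The label itself was checked first. Card9, on chromosome 2, was bright in the arrays labelled GF Card9-/- at day 0, with a normalized log2 signal of 8.90 ± 0.20 (SD, n = 7). The arrays labelled GF WT had 2.32 ± 0.011 (SD, n = 6), and Card9 was not well above background on any of them. At day 7 Card9 was again bright in all 4 arrays labelled GF Card9-/-, and of those labelled GF WT it was bright in replicate 1 only, at 7.85. The Card9 signal therefore goes against the labels at both days, and every direction below is given by label and not by genotype. Between 42.2% and 64.9% of the spots of an array were well above background, 0 were saturated, and 8 of 8 epithelial marker genes were well above background on all arrays at both days. Some arrays stood apart. The mean of 6 pancreas genes, as a log2 deviation from their mean over the arrays of a day, was 11.2 in GF Card9-/- replicate 7 at day 0, and 4.41 and 8.72 in GF Card9-/- replicates 2.1 and 6 at day 7. The same score of 8 small intestine genes was 2.16 in GF WT replicate 6 at day 0. The days were measured on different array designs, so that day and design cannot be told apart, and levels at day 7 were not compared with those at day 0.

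At day 0, all 10 genes were well above background on all 13 arrays by their brightest probe, and 0 of 10 passed the test between the labels (limma, Benjamini-Hochberg adjusted p under 0.05 over 47410 probes). Over all probes, 12 passed, which is 0.0253% of those tested, and 2769 had an unadjusted p under 0.05. Of the 10 genes, 7 had a higher mean in the arrays labelled GF Card9-/- and 3 a lower mean. The log2 differences (labelled GF Card9-/- minus labelled GF WT, here and below) had a median of 0.073 and ran from -0.48 for Cd44 to 0.51 for Myc. The median over all probes tested was 0.015. Myc was the 1 gene of the 10 whose labels did not overlap, against 0.458% of all probes tested.

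**Figure D1:**
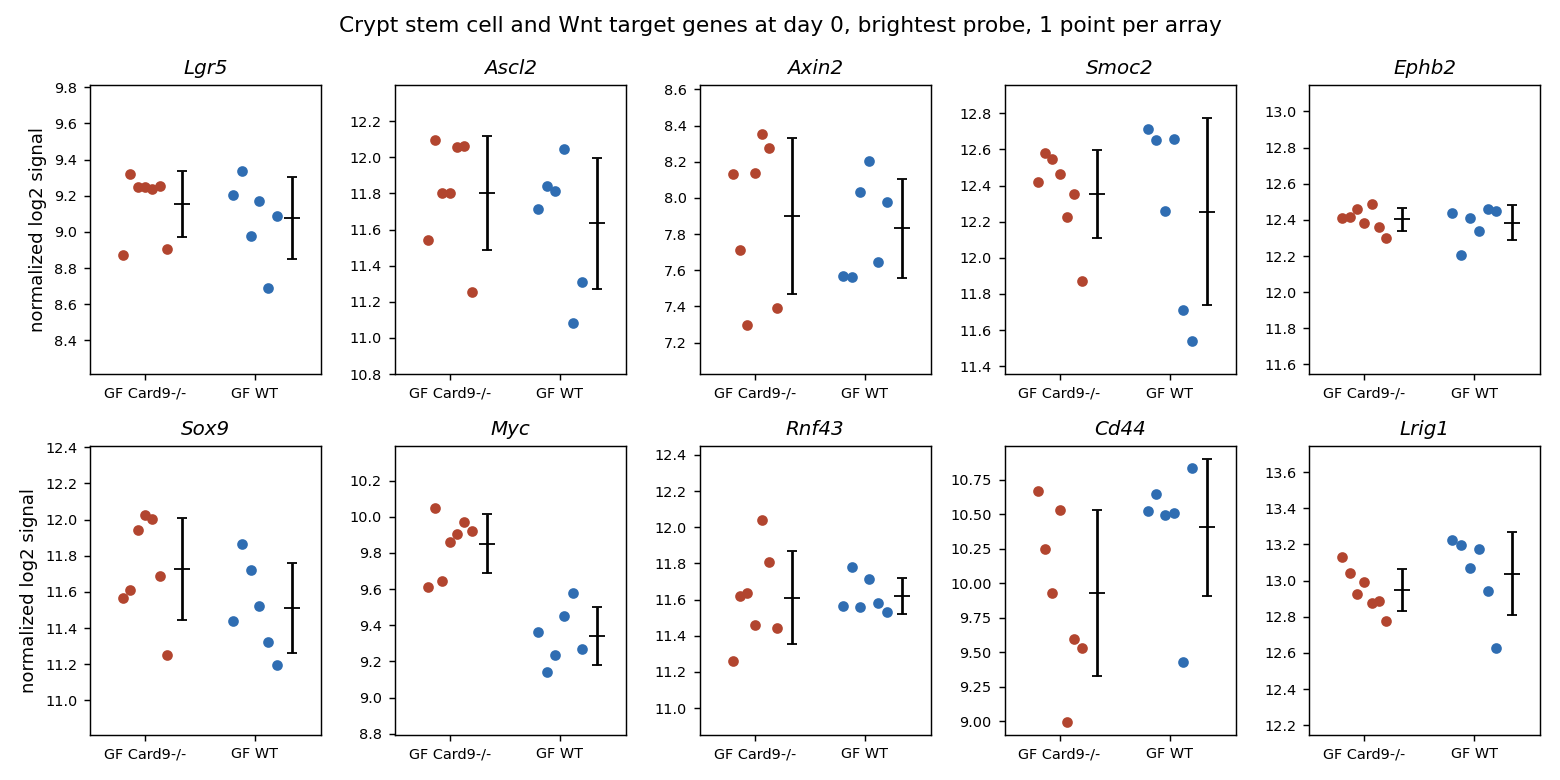
Normalized log2 signal of the brightest probe of each of the 10 genes at day 0, with 1 point per array, for the 7 arrays labelled GF Card9-/- (red) and the 6 labelled GF WT (blue). Black marks are the mean and SD. The Myc points of the labels do not overlap, while those of the other 9 genes do.

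Myc had a log2 signal with a lowest value of 9.61, a median of 9.90 and a highest value of 10.05 in the arrays labelled GF Card9-/-. In those labelled GF WT these values were 9.14, 9.32 and 9.58. All 7 arrays labelled GF Card9-/- were thus above all 6 labelled GF WT. The log2 difference was 0.51 (SE 0.090, 95% confidence interval 0.315 to 0.71), a 1.43-fold difference, with an unadjusted p of 9.75e-05 and an adjusted p of 0.12 in limma. It did not pass the threshold. The exact permutation test of this gene alone gave a two-sided p of 0.00117, where 0.000583 is the smallest that the 1716 regroupings of 7 and 6 arrays allow, and this p is not adjusted for the 10 genes.

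A second Myc probe differed by 0.58 (SE 0.17, limma adjusted p = 0.478). It ran from 7.10 to 7.78 in the arrays labelled GF Card9-/- and from 6.29 to 7.33 in those labelled GF WT, so that on this probe the labels overlapped. Within the scan sessions the difference of the brightest Myc probe was 0.51 in the first and 0.52 in the second. Without the slide that held GF WT replicate 6 it was 0.46, and over all alternatives run it stayed between 0.46 and 0.56 with a lowest adjusted p of 0.0638. Among proliferation markers, 9 of 10 had a higher mean in the arrays labelled GF Card9-/-, none passed the test, and their score was 0.13 ± 0.15 (SD, n = 7) against -0.15 ± 0.43 (SD, n = 6). Over arrays within a label, Myc and this score had a Pearson r of 0.046 (permutation p = 0.886) and a Spearman rho of -0.19 (permutation p = 0.528). The part of proliferating cells in the Myc difference was not tested.

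The stem cell genes did not pass at day 0, and their brightest probes had small differences. Lgr5 had values of 8.87, 9.25 and 9.32 (lowest, median and highest) in the arrays labelled GF Card9-/- and of 8.69, 9.13 and 9.34 in those labelled GF WT, a log2 difference of 0.078 with a 95% confidence interval of -0.17 to 0.32. For Ascl2 these values were 11.25, 11.80 and 12.10 against 11.08, 11.76 and 12.04, a difference of 0.17 (interval -0.22 to 0.56). The labels overlapped widely for both genes. A dimmer Lgr5 probe, well above background on 9 of 13 arrays, had the opposite sign with a difference of -0.40 (limma adjusted p = 0.912). In bulk colon RNA, fewer cells of a type and less RNA per cell cannot be told apart. Smoc2 ran from 11.87 to 12.58 in the arrays labelled GF Card9-/- and from 11.54 to 12.71 in those labelled GF WT (difference 0.096, interval -0.36 to 0.55), and its other probes differed by 0.033 and -0.20. When GF WT replicate 6 was left out these became -0.12 and 0.27. Lrig1 ran from 12.78 to 13.13 and from 12.63 to 13.22 (difference -0.093, interval -0.31 to 0.12). The lowest value of both genes was in GF WT replicate 6, the array with the high small intestine score, and the lowest of those labelled GF Card9-/- was in replicate 7, the array with the high pancreas score. What these arrays' other tissue contributed was not tested.

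The Wnt feedback genes were also close between the labels by their brightest probes. Axin2 had values of 7.30, 8.14 and 8.35 in the arrays labelled GF Card9-/- and of 7.57, 7.81 and 8.20 in those labelled GF WT (difference 0.069, interval -0.36 to 0.50). By its brightest probe, Axin2 split by scan session, with both labels in each. The 6 arrays of the first lay between 7.30 and 7.71 and the 7 of the second between 7.98 and 8.35. Within the sessions the Axin2 difference was -0.13 and 0.15 (limma adjusted p = 1 and 0.974). A dimmer Axin2 probe differed by 0.0615 between the labels. On that probe the sessions overlapped, from 5.26 to 5.76 in the first and from 5.39 to 5.99 in the second. For Rnf43 the lowest, median and highest values were 11.26, 11.62 and 12.04 against 11.53, 11.57 and 11.78 (difference -0.012, interval -0.25 to 0.23). These Rnf43 values were more spread out in the arrays labelled GF Card9-/- (SD 0.26) than in those labelled GF WT (SD 0.10), a difference in spread that was not tested. A dimmer Rnf43 probe differed by 0.27, and by 0.085 to 0.37 when 1 array was left out.

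By its brightest probe, Ephb2 was the steadiest of the 10 genes, with an SD of 0.064 and 0.097 in the labels. Its log2 difference was 0.018, with the narrowest interval, -0.097 to 0.13. A dimmer Ephb2 probe was more spread out and differed by 0.063. It ran from 8.40 to 8.79 in the arrays labelled GF Card9-/- and from 8.275 to 8.96 in those labelled GF WT. Sox9 ran from 11.25 to 12.02 in the arrays labelled GF Card9-/- and from 11.20 to 11.87 in those labelled GF WT (difference 0.22, interval -0.097 to 0.53). Its other probe differed by 0.32 (limma adjusted p = 0.843). Over all alternatives run, the Sox9 difference lay between 0.059 and 0.34. Cd44 had values of 9.00, 9.93 and 10.67 against 9.43, 10.52 and 10.84, a difference of -0.48 (interval -1.12 to 0.16) with an adjusted p of 0.912. All 3 Cd44 probes had a lower mean in the arrays labelled GF Card9-/-, by 0.20 to 0.48 in size, although the dimmest turned to 0.081 when GF WT replicate 6 was left out. Without the slide of GF WT replicate 6, which also held the GF Card9-/- arrays with the lowest smooth muscle scores (replicates 5 and 6, -2.07 and -1.38), the Cd44 difference was -0.14.

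At day 7, Lgr5 was not well above background on any of the 8 arrays, although the same probe was well above it on 13 of 13 arrays at day 0, so no Lgr5 difference is given. Of the other 9 genes, 2 had a higher mean in the arrays labelled GF Card9-/- and 7 a lower mean, with a median log2 difference of -0.16. The median over all 44643 probes tested was 0.0013. In limma, 0 of these 9 genes passed the test (adjusted p between 0.913 and 0.999, with 0 of 9 at an unadjusted p under 0.05), where 0% of all probes did and 1511 probes had an unadjusted p under 0.05. The labels overlapped for all 9 genes, while 2.13% of all probes tested did not overlap. The mean deviation of all 10 genes from their means over the day lay between -0.23 and -0.062 in the arrays labelled GF Card9-/- and between 0.047 and 0.17 in those labelled GF WT. Without Lgr5, a choice made after the values were seen, these ranges overlapped, -0.28 to -0.008 against -0.038 to 0.22. Proliferation markers had a lower mean in 8 of 10 (median -0.49), leukocyte markers a higher mean in 8 of 8 (median 0.31) and differentiated colonocyte markers in 7 of 7 (median 0.37). Pancreas genes had a higher mean in 6 of 6 (median 4.82, 3 not overlapping), adipocyte markers in 4 of 5 (median 1.45) and small intestine genes in 4 of 7 (median 1.08, 1 not overlapping). Smooth muscle markers had a lower mean in 7 of 7 (median -0.48) and fibroblast markers in 5 of 6 (median -0.055), and goblet cell markers a higher mean in 5 of 6 (median 0.31). In each of these lists 0 passed the test. Their part in the values of the 9 genes was not tested. With 4 arrays a label, the half-width of the 95% confidence intervals ran from 0.28 to 1.58 on the log2 scale. The intervals are not adjusted for the 44643 probes, so that differences of that size, and larger ones, could fail the adjusted test.

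**Figure D2:**
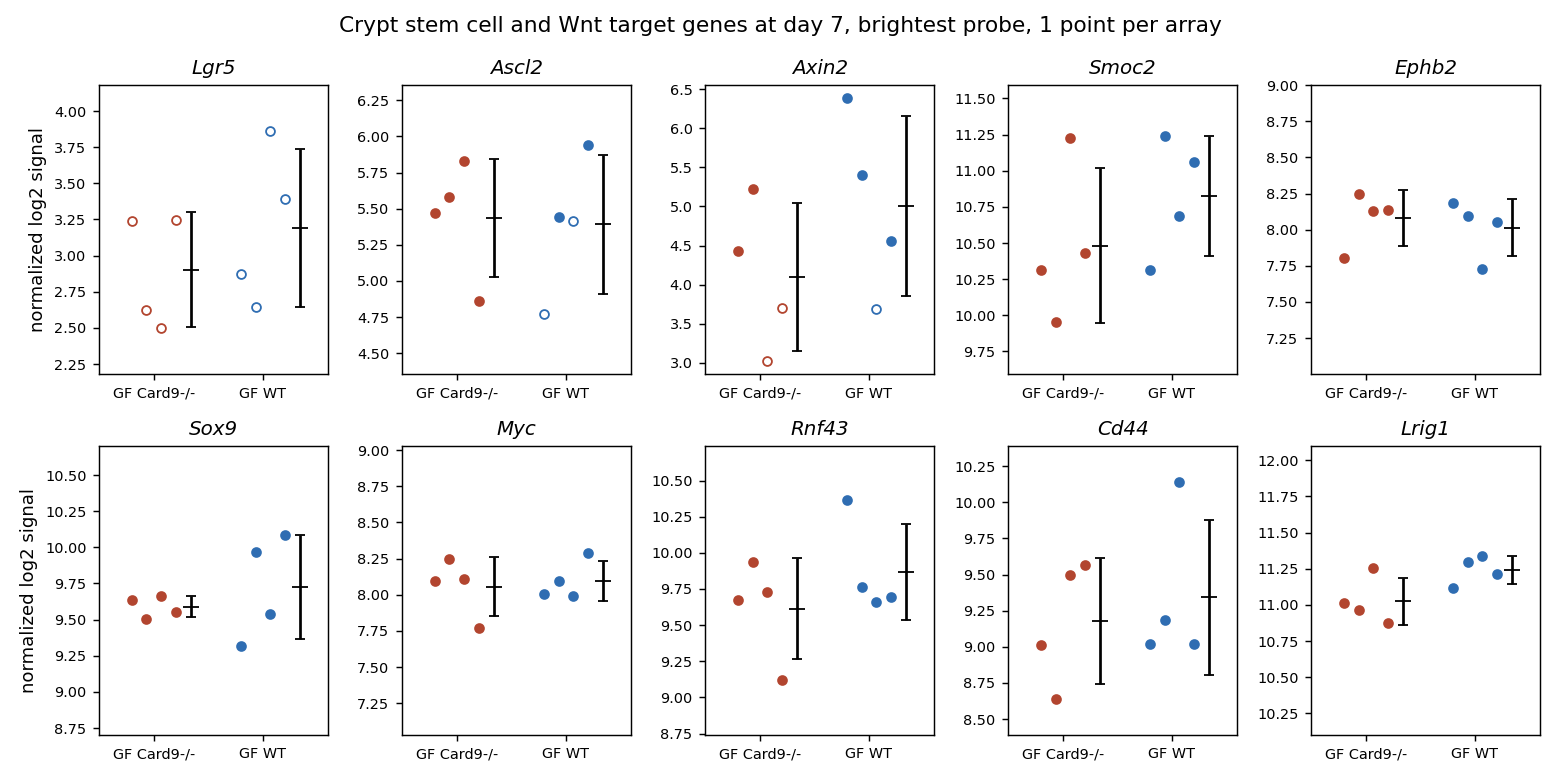
Normalized log2 signal of the brightest probe of each of the 10 genes at day 7, with 1 point per array, for the 4 arrays labelled GF Card9-/- (red) and the 4 labelled GF WT (blue). Open points are arrays on which the probe was not well above background, which holds for all 8 Lgr5 values, and black marks are the mean and SD.

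Ascl2 read 5.47, 5.58, 5.83 and 4.86 in GF Card9-/- replicates 2, 2.1, 4 and 6, and 4.77, 5.44, 5.41 and 5.94 in GF WT replicates 1, 4, 5 and 6. Of these arrays, 4 of 4 and 2 of 4 were well above background. Its log2 difference of 0.045 (95% confidence interval -0.65 to 0.74) therefore includes values at the background of the array. Axin2 read 4.43, 5.22, 3.02 and 3.70 in the arrays labelled GF Card9-/-, in the same order, and 6.39, 5.40, 3.69 and 4.56 in those labelled GF WT. Axin2 was above background on 2 of 4 and 3 of 4 arrays by the same measure, and its difference of -0.91 had the widest interval of the 9 genes, -2.50 to 0.67. Without GF WT replicate 1, the array labelled GF WT that has a Card9 signal and the highest Axin2 value, the difference was -0.46, and without GF WT replicate 5 it was -1.35. It was -0.28 with normexp and -0.29 in the deposited log2 values, and it ran from -1.62 with a replicate block to -0.15 with a slide block.

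Myc read 8.10, 8.25, 8.11 and 7.77 in the arrays labelled GF Card9-/- and 8.01, 8.09, 7.99 and 8.29 in those labelled GF WT. Its difference of -0.040 (interval -0.36 to 0.28) was small beside the spread within either label. Smoc2 read 10.32, 9.95, 11.23 and 10.43 against 10.31, 11.24, 10.69 and 11.06 (difference -0.34, interval -1.08 to 0.39). Without GF Card9-/- replicates 2.1 and 6, the arrays with high pancreas scores, the Smoc2 difference was -0.054, and with a slide block it was -1.02. Lrig1 read 11.01, 10.96, 11.25 and 10.87 against 11.11, 11.30, 11.34 and 11.22 (difference -0.22, interval -0.50 to 0.063). Only 1 of the 4 arrays labelled GF Card9-/- lay within the range of those labelled GF WT for Lrig1, and the exact permutation test gave p = 0.0857, where 0.0286 is the smallest that 4 against 4 arrays allow. A second Lrig1 probe had the opposite sign, with a difference of 0.13, which became -0.0046 when GF Card9-/- replicate 4 was left out.

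Rnf43 read 9.67, 9.93, 9.73 and 9.12 in the arrays labelled GF Card9-/- and 10.36, 9.76, 9.66 and 9.70 in those labelled GF WT (difference -0.26, interval -0.80 to 0.29). The high value was again that of GF WT replicate 1, and the difference was -0.092 without either that array or GF Card9-/- replicate 6. Sox9 read 9.63, 9.51, 9.66 and 9.55 against 9.32, 9.97, 9.54 and 10.09 (difference -0.14). The Sox9 difference became -0.276 when GF WT replicate 1 was left out and -0.0196 when replicate 6 of that label was. The 4 arrays labelled GF Card9-/- all lay within the range of those labelled GF WT for Sox9. Cd44 read 9.01, 8.64, 9.50 and 9.57 against 9.02, 9.19, 10.14 and 9.02 (difference -0.16), and Ephb2 stayed between 7.73 and 8.24 on all 8 arrays (difference 0.064).

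**Figure D3:**
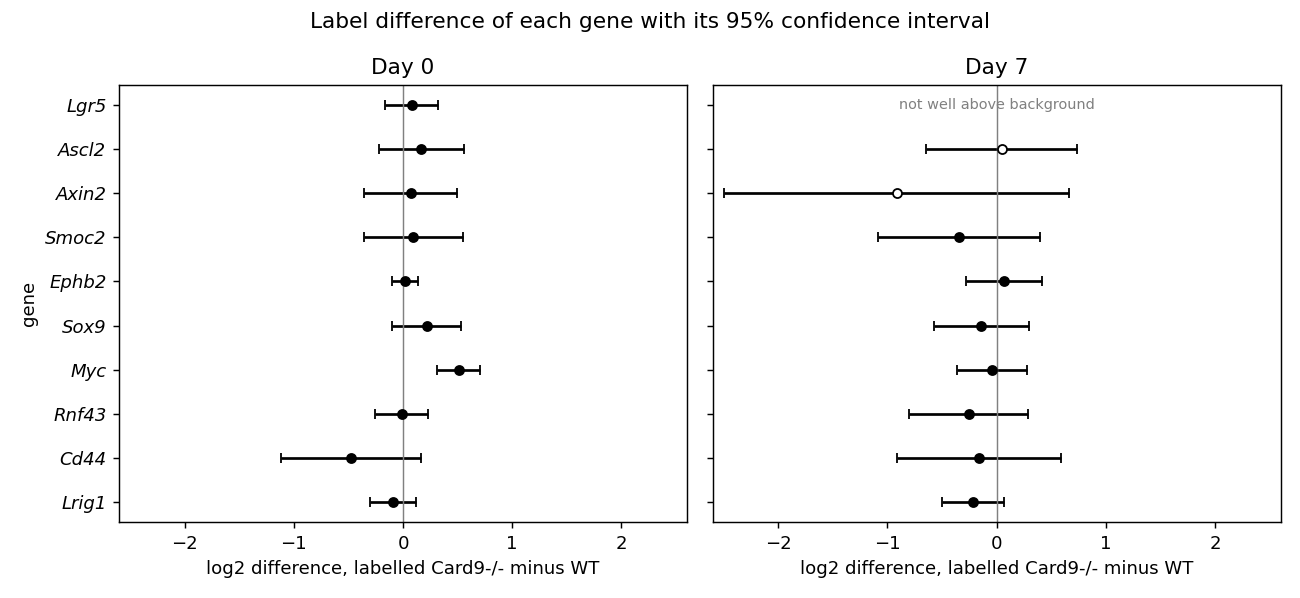
Log2 difference between the labels (GF Card9-/- minus GF WT) for each gene at day 0 (left) and day 7 (right), with 95% confidence intervals from limma. Open points are genes not well above background on all arrays of the day. Only the interval of Myc at day 0, from 0.315 to 0.71, leaves out 0, and its adjusted p was 0.12.

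Whether the label difference itself differed between the days was tested on 23633 probes that both designs hold, of which 0 (0%) passed at an adjusted p under 0.05 in limma and 1688 had an unadjusted p under 0.05. A shared probe was tested for 6 of the 10 genes, and 0 of them passed. For Myc the label difference was 0.51 at day 0 and -0.040 at day 7, a change of -0.55 (SE 0.16, 95% confidence interval -0.88 to -0.22, unadjusted p = 0.00237, adjusted p = 0.425). For Smoc2, Ascl2, Cd44 and Ephb2 the change lay between -0.44 and 0.22, and none is given for Lgr5. The shared Cd44 probe is the brightest on neither day, and its label differences were -0.32 at day 0 and -0.10 at day 7. The shared Ephb2 probe is not the brightest at day 0, and its differences were 0.063 and 0.064. Leaving out 1 array moved the change of Smoc2 (-0.44) between -0.69 (without GF Card9-/- day 7 replicate 4) and -0.26 (replicate 2.1), and with a slide block it was -1.16. The change of Cd44 (0.22) moved between 0.0048 (without GF WT day 0 replicate 6) and 0.45 (day 7 replicate 5).

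The other genes of the pathway and of the crypt were read in 8 lists, each gene by its brightest probe. At day 0, 0 genes of these lists passed the test by that probe. Of the secreted Wnt inhibitors, 8 of 8 had a lower mean in the arrays labelled GF Card9-/-, with a median difference of -0.57 and a range from -0.84 for Sfrp1, a secreted frizzled-related protein (adjusted p = 0.912), to -0.14 for Sfrp5 (adjusted p = 0.979). Only 4 of the 8 were well above background on all arrays of the day. Sfrp1 was so on 6 of 7 arrays labelled GF Card9-/- and on 6 of 6 labelled GF WT. The median of the inhibitors was -0.37 with normexp, -0.90 when GF WT replicate 6 was left out and -0.35 when GF Card9-/- replicate 5 was. Of the Wnt ligands and R-spondins, 8 of 12 tested had a lower mean (median -0.34). This median was -0.12 both with normexp and in the deposited log2 values, and leaving out 1 array moved it between -0.48 and -0.21 (without GF WT replicates 5 and 6). Wnt4 had a difference of -1.11 (adjusted p = 0.886) and Rspo1 of 0.73 (adjusted p = 0.876). Marker genes of connective tissue had lower means as well. All 6 fibroblast markers and all 7 smooth muscle markers had a lower mean in the arrays labelled GF Card9-/-, with median differences of -0.85 and -0.45 and 0 past the test. Their scores were -0.35 ± 1.10 against 0.41 ± 1.16 for fibroblast and -0.21 ± 1.25 against 0.25 ± 1.01 for smooth muscle (SD, n = 7 and 6). The part of connective tissue content in the values of the secreted genes was not tested.

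Among the epithelial lists at day 0, 11 of 12 other crypt base and progenitor genes had a higher mean in the arrays labelled GF Card9-/-, with a median difference of 0.068. Epithelium markers had a higher mean in 7 of 8 (median 0.077) and goblet cell markers in 5 of 6 (median 0.095), differences of about the same size, and their part in the crypt values was not tested. Prom1, a membrane protein of progenitor cells, had the highest, 0.21 (adjusted p = 0.945), and Rgmb, a co-receptor for BMPs, the lowest, -0.016 (adjusted p = 0.993). All 4 deep crypt secretory cell genes had a higher mean (median 0.09), with Spdef, a transcription factor of secretory cells, at 0.35 (adjusted p = 0.912) and Kit, a receptor tyrosine kinase, at 0.077 (adjusted p = 0.945). Leaving out 1 array moved the median of this list between 0.055 and 0.19. Wnt receptors and intracellular signalling genes were split, 11 higher and 8 lower of 19 (median 0.026), between 0.19 for Tcf7l1 (adjusted p = 0.931) and -0.30 for Fzd6, a frizzled receptor (adjusted p = 0.755). BMP and Notch crypt signals were split 8 to 8 (median 0.0067), with Notch1 at 0.46 (adjusted p = 0.831) and Bmp4 at -0.87 (adjusted p = 0.912). The sign of both medians turned on leaving out 1 array. They ran from -0.0076 to 0.034 for the Wnt receptor list and from -0.021 to 0.046 for BMP and Notch crypt signals. Of the regenerating epithelium genes, 3 of 9 had a higher mean (median -0.29). This median was -0.18 with normexp, -0.50 when GF Card9-/- replicate 1 was left out and -0.14 when GF WT replicate 1 was. Areg, an EGF receptor ligand, was at 1.06 (95% confidence interval 0.44 to 1.68, adjusted p = 0.389) and Ccn2, listed by the files as Ctgf, at -0.70 (adjusted p = 0.912).

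Of the 12 other Wnt target and feedback genes, 8 had a higher and 4 a lower mean at day 0 (median 0.034), with Tcf7 at 0.25 (adjusted p = 0.916) and Nkd1, an inhibitor of Dishevelled, at -0.50 (adjusted p = 0.912). Leaving out 1 array moved the median between 0.0012 and 0.073, and over all alternatives run it lay between -0.083 and 0.085. Tnfrsf19 (Troy) of this list, a crypt receptor, was the only listed gene with a probe past the test, and that probe was not its brightest. Its start is shown with that of the brightest probe, since both are annotated to the same RefSeq transcript and their differences have opposite signs.
Tnfrsf19, past the test, chr14:61615452-61615511, minus strand: aaactggttggttttcaagacatggagtgt
Tnfrsf19, brightest, chr14:61582948-61583007, minus strand: aagccaggacaagatggaggagacaaggac

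The first of these Tnfrsf19 probes had a lowest, median and highest log2 signal of 7.35, 7.51 and 7.62 in the arrays labelled GF Card9-/- and of 6.39, 6.50 and 6.63 in those labelled GF WT. All arrays of the former label were above all of the latter, with a log2 difference of 1.01 (SE 0.059, 95% confidence interval 0.88 to 1.14, limma adjusted p = 7.04e-06). The brightest Tnfrsf19 probe differed by -0.32 (SE 0.27, adjusted p = 0.912), and its labels overlapped, from 6.26 to 7.90 and from 6.95 to 7.92. A single probe of Tnfrsf19 thus passed, while the gene as a whole cannot be called. Neither probe was read at day 7, where the brightest Tnfrsf19 probe differed by -0.80 (adjusted p = 0.913). That value rests on GF WT replicate 5, at 8.33, beside 5.71 to 6.27 in the other 3 arrays of that label and 4.80 to 6.40 in those labelled GF Card9-/-, of which 3 of 4 were well above background. Another Tnfrsf19 probe at day 7 had the opposite sign, with a difference of 0.54. This became 0.049 without GF Card9-/- replicate 6 and 1.10 without replicate 2.1 of that label. Within the scan sessions at day 0, the difference of the first probe was 1.11 (adjusted p = 0.228) and 0.92 (adjusted p = 0.247).

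At day 7, again 0 genes of the 8 lists passed the test. The medians lay between -0.14 for BMP and Notch crypt signals (7 higher and 9 lower of 16) and 0.098 for the other Wnt target and feedback genes (7 higher and 4 lower of 11 tested). Leaving out 1 array turned the sign of several medians. That of BMP and Notch crypt signals was -0.28 without GF Card9-/- replicate 4 and 0.092 without replicate 2.1, that of the other Wnt targets -0.057 without GF WT replicate 1, that of the secreted inhibitors 0.10 without GF Card9-/- replicate 2.1 and that of regenerating epithelium genes -0.14 without GF Card9-/- replicate 6. With 1 array left out, the median of the Wnt ligands and R-spondins ran from -0.18 to 0.020. That of the other crypt base and progenitor genes ran from -0.091 to 0.073, and that of the Wnt receptors and intracellular signalling genes from -0.12 to -0.049. With a slide block the median of the secreted inhibitors was -0.79 and that of regenerating epithelium genes -1.13. Of the Wnt ligands and R-spondins, 3 of 11 tested had a higher mean (median -0.073), with Rspo1 at 0.37 and Wnt4 at -0.74. The secreted Wnt inhibitors were split 4 to 4 (median -0.047), with Dkk2 at 0.27 (measured above background on 4 of 4 and 2 of 4 arrays) and Sfrp2 at -0.79 (4 of 4 and 3 of 4). Wnt receptors and intracellular signalling genes were higher in 7 and lower in 12 of 19 (median -0.061), with Dvl3, a Dishevelled protein, at 0.58 and Fzd7 at -0.86. Prom1 was at 1.30 and Hopx, a homeodomain protein of slowly cycling crypt cells, at -0.60 among the other crypt base and progenitor genes (6 of 12 higher, median 0.033).

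The remaining day 7 values were as unsettled. Nog, a BMP antagonist, was at 0.69, with 4 of 4 arrays labelled GF Card9-/- but 2 of 4 labelled GF WT well above background, and Id1, a BMP target, at -0.72. Spdef was at 0.30 and Reg4, a marker of deep crypt secretory cells, at -0.81, with 2 of the 4 genes of that list higher (median -0.087). Ereg, an EGF receptor ligand, was at 0.50 and Ccn2 at -0.71, with 5 of the 9 regenerating epithelium genes higher (median 0.059). Tcf7 was at 0.44 (4 of 4 and 3 of 4 well above background). The adjusted p of the genes named for day 7 lay between 0.913 and 0.977.

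Many of these single-gene differences rested on 1 array. At day 7 without GF WT replicate 5, Sfrp2 was at 0.11, Reg4 at -0.079, Spdef at 0.025, Prom1 at 0.53, Fzd7 at -0.55 and Tnfrsf19 at -0.20. Dropping GF WT replicate 1 gave -0.21 for Dkk2 and 0.075 for Ereg. Dropping GF Card9-/- replicate 2.1 gave -0.15 for Rspo1, -0.27 for Wnt4 and -0.27 for Ccn2, and dropping replicate 6 of that label gave 0.10 for Tcf7, -0.44 for Id1 and -0.38 for Hopx. At day 0, signs turned for Prom1 (-0.068 when GF WT replicate 2 was dropped), Sfrp5 (0.012, GF WT replicate 1) and Rgmb (0.066, GF Card9-/- replicate 5), and the values of Tcf7 and Tcf7l1 shrank to 0.012 (GF Card9-/- replicate 6) and 0.026 (GF WT replicate 6). Without GF Card9-/- replicate 5, Nkd1 was at -0.23, Ccn2 at -0.40, Bmp4 at -0.55 and Sfrp1 at -0.49. Rspo1 was at 0.47 when GF WT replicate 5 was dropped and Spdef at 0.23 when replicate 2 was. These values are differences of label means, chosen as a check after the values were seen.

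How the 10 genes varied together was read over the arrays of a day after the mean of each label had been taken off. At day 0, 31 of 45 pairs had a Pearson r above 0, with a median of 0.156 and a range from -0.581 to 0.892, and 2 of 45 pairs passed after Benjamini-Hochberg adjustment of the permutation p over the 45 pairs. Smoc2 and Lrig1 had r = 0.892 (permutation p = 2e-05, adjusted p = 0.0009) and a Spearman rho of 0.885 (permutation p = 0.00012, adjusted p = 0.0054). Without the 2 arrays farthest from the median of Smoc2, r was 0.777. It was 0.857 without the slide of GF WT replicate 6, 0.967 in the first scan session (6 arrays) and 0.928 in the second (7 arrays).

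Lgr5 and Ascl2 had r = 0.794 (permutation p = 0.00218, adjusted p = 0.049) and a rho of 0.648 (permutation p = 0.0191, adjusted p = 0.215). This r was 0.671 without the 2 arrays farthest from the median of Lgr5, 0.847 without the slide, 0.964 in the first session and 0.566 in the second. Within the labels, GF Card9-/- replicates 1 and 7 and GF WT replicate 5 were the lowest for both genes. Ascl2 and Smoc2 followed with r = 0.756 (permutation p = 0.00353, adjusted p = 0.0529) and a rho of 0.577 (permutation p = 0.042, adjusted p = 0.357). Lgr5 and Smoc2 had r = 0.634 (permutation p = 0.0181, adjusted p = 0.163, rho = 0.692 with permutation p = 0.0107), which was 0.976 in the first session and 0.034 in the second. The other 5 pairs with an unadjusted permutation p under 0.05 had adjusted p-values between 0.163 and 0.208, Lgr5 and Sox9 among them (0.758 and 0.364 in the sessions). Axin2, whose arrays form 1 cluster per session by its brightest probe, is described within sessions. Axin2 and Myc had r of 0.708 in the first and 0.744 in the second, against 0.121 pooled. With Axin2, Ascl2 had 0.302 and 0.865, and Rnf43 0.079 and 0.857. Lgr5 and Myc had opposite signs, -0.598 and 0.936. These within-session values, over 6 and 7 arrays, were not tested. Cd44 and Rnf43 had r = -0.581 (permutation p = 0.0372, adjusted p = 0.208) with a rho of -0.467 (permutation p = 0.111). This r was -0.098 without the 2 arrays farthest from the median of Rnf43, and it was 0.6 in the first session and -0.967 in the second, so that the sessions do not share 1 relation.

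**Figure D4:**
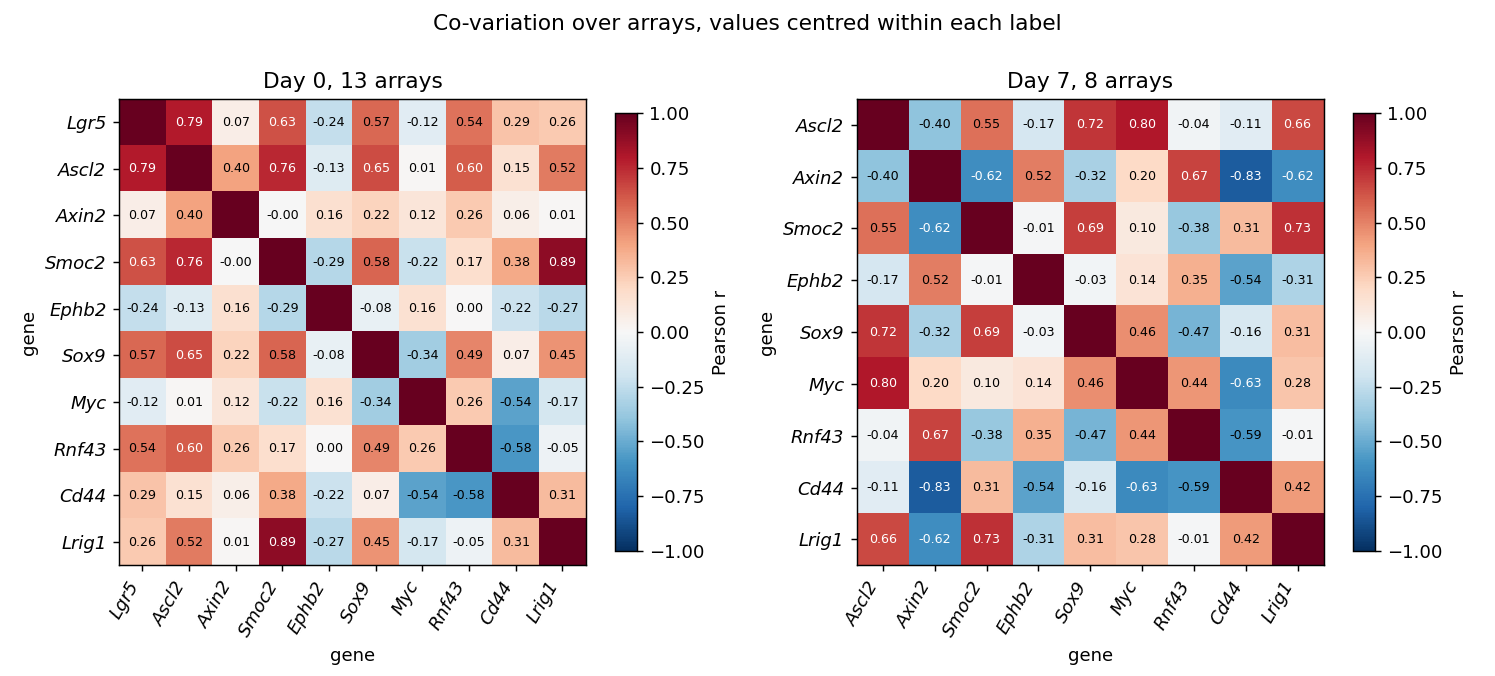
Pearson r between the genes over the arrays of day 0 (left, 13 arrays) and day 7 (right, 8 arrays, without Lgr5), after the mean of each label had been taken off. Red is above 0 and blue below. The highest values at day 0 are 0.89 for Smoc2 and Lrig1 and 0.79 for Lgr5 and Ascl2, the pairs that passed.

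At day 7, 18 of the 36 pairs of the 9 genes had r above 0 (median 0.045), and 0 of 36 passed after adjustment over the 36 pairs, while 4 had an unadjusted permutation p under 0.05. Axin2 and Cd44 had r = -0.829 (exact permutation p = 0.0126, adjusted p = 0.265) and Ascl2 and Myc r = 0.804 (exact permutation p = 0.0147, adjusted p = 0.265). Smoc2 and Lrig1 had r = 0.728 (exact permutation p = 0.0395, adjusted p = 0.362), which was 0.198 without the 2 arrays farthest from the median of Smoc2. The Axin2 and Ascl2 relations include arrays on which these genes were not well above background.

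Several of the 10 genes moved over arrays with marker genes of tissue layers. At day 0, 7 of 50 relations between the 10 genes and the scores of 5 marker lists (epithelium, proliferation, smooth muscle, fibroblast and leukocyte) passed after adjustment over the 50 by Pearson's r and 9 by Spearman's rho. Smoc2 was low where the epithelium score was high, at r = -0.868 (permutation p = 8e-05, adjusted p = 0.004, rho = -0.797 with permutation p = 0.00191). It was -0.853 without the slide of GF WT replicate 6, and -0.849 and -0.917 within the sessions. Smoc2 and Lrig1 both went with the fibroblast score, at r = 0.763 and 0.75 (permutation p = 0.00304 and 0.00231, adjusted p = 0.0304 and 0.0289), with rho = 0.742 and 0.885 (permutation p = 0.00489 and 2e-04). Lrig1 also went with the smooth muscle score at r = 0.766 (permutation p = 0.00168, adjusted p = 0.028, rho = 0.775 with permutation p = 0.00314) and against the epithelium score at r = -0.722 (permutation p = 0.00658, adjusted p = 0.047, rho = -0.714 with permutation p = 0.00801). Ascl2 had r = -0.711 with the epithelium score (permutation p = 0.00551, adjusted p = 0.0459, rho = -0.665 with permutation p = 0.016), which did not pass by rho (adjusted p = 0.0727). Without the 2 arrays farthest from the median score, these r had the same sign and a size of at least 0.67. By rho alone, the leukocyte score went with Ascl2 at 0.824 (permutation p = 0.00109, adjusted p = 0.0272), with Rnf43 at 0.725 (permutation p = 0.00637, adjusted p = 0.0455) and with Lgr5 at 0.709 (permutation p = 0.00831, adjusted p = 0.0462). Their r were 0.676, 0.524 and 0.582 (permutation p = 0.0108, 0.0681 and 0.0333, adjusted p = 0.0602, 0.179 and 0.117). The values for Smoc2 and Lrig1 stand beside the relation of Smoc2 with Lrig1, and the part of tissue content in it was not tested.

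Cd44 went with the fibroblast score at both days. At day 0, r was 0.824 (permutation p = 0.00062, adjusted p = 0.0155) with a rho of 0.758 (permutation p = 0.00397). It was 0.559 without the 2 arrays farthest from the median score, 0.972 without the slide of GF WT replicate 6, and 0.979 and 0.776 within the sessions. At day 7, r was 0.972 (exact permutation p = 0.000694, adjusted p = 0.0212 over 45 relations) with a rho of 0.905 (exact permutation p = 0.00456, adjusted p = 0.121), 0.946 without the 2 arrays farthest from the median score and 0.969 without GF Card9-/- replicates 2.1 and 6. The 8 arrays lay apart as 3 with high and 5 with low values of both, too few in either to give r within them, so the day 7 relation cannot be told apart from that split. Axin2 went against the smooth muscle score at day 7, at r = -0.942 (exact permutation p = 0.000942, adjusted p = 0.0212) and rho = -0.881 (exact permutation p = 0.00724, adjusted p = 0.121), and against the fibroblast score at r = -0.901 (exact permutation p = 0.00159, adjusted p = 0.0238) and rho = -0.857 (exact permutation p = 0.0107, adjusted p = 0.121). These Axin2 values include 3 arrays not well above background. By Spearman's rho, 0 of the 45 day 7 relations passed.

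**Figure D5:**
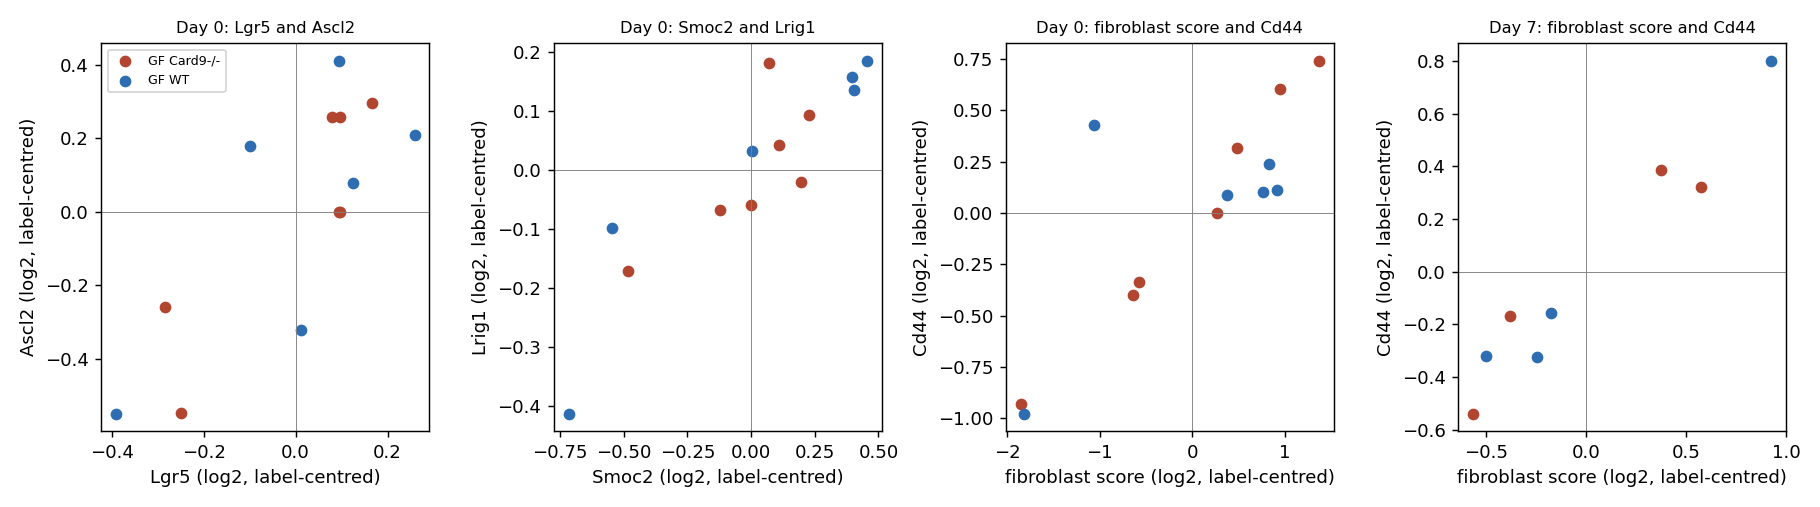
Label-centred log2 values over arrays for Lgr5 against Ascl2 and Smoc2 against Lrig1 at day 0, and for Cd44 against the fibroblast score at day 0 and day 7 (red, labelled GF Card9-/-; blue, labelled GF WT). From left to right r is 0.794, 0.892, 0.824 and 0.972. GF WT replicate 6 lies off the day 0 relation of Cd44, and at day 7 the points form an upper set of 3 and a lower set of 5.

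The genes most like Lgr5 at day 0 were sought among 15496 genes well above background on all 13 arrays, by Pearson r of label-centred values. They were Rbm48 (r = 0.88), Mthfd1 (0.86), Pitrm1 (0.86), Plekhg5 (0.84) and Rfc1 (0.84), with Ascl2 at rank 26 and Smoc2 at rank 351. Those most like Axin2 were Zkscan1 (r = 0.95), Usf2 (0.95), Znrf3 (0.93), LOC102641574 (0.92) and Gins3 (0.92). Znrf3 is, like Rnf43, a Wnt target that removes Wnt receptors, while Rnf43 itself had r = 0.26 with Axin2. Since Axin2 split by scan session on the probe used, its brightest, a likeness to it at day 0 includes that split. At day 7, over 8 arrays, the genes most like Axin2 were Hoxa13 (r = 0.98), Grtp1 (0.97), Il27 (0.95), Flad1 (0.95) and E330020D12Rik (0.94). None is given for Lgr5 at day 7. These are descriptions, with no test, of values that share arrays and normalization.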

How the data were processed

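Colon RNA was measured on 21 single-color Agilent arrays. The authors extracted spots with Feature Extraction 10.7.3.1, and the deposited intensity values are linear. The deposited p-value of a spot compares it with its background. A table of log2 values, also deposited, served as an alternative. Arrays of 1 day were quantile normalized together on log2 processed signals of all spots. Control and outlier spots were then removed, and replicate spots were averaged. As in the study's methods, a probe was tested when detected (p under 0.05) on 60% or more of a label's arrays. Probes were named through RefSeq records, or by the files. Labels were compared within each day with limma 3.58.1 (R 4.3.3) and Benjamini-Hochberg adjustment at 0.05, checked on simulated data. Nothing says that arrays are separate mice beyond their numbers, so p-values measure the spread between these samples. GF Card9-/- replicates 2 and 2.1 differed by an SD of 0.852, within the range of other pairs, and were counted as 2 samples.

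Correlations used 100000 resamples at day 0 and all 40320 orders at day 7. Score relations were chosen after values were seen. The members and lists were chosen with earlier results of these data known. Named were all members, Card9, called list genes or else the highest and lowest difference of each list among genes well above background on all arrays of a label, and the 5 genes most like Lgr5 and Axin2. Alternatives were the 75th percentile, normexp (offset 50), the deposited log2 values, a stricter or no detection filter, dim values raised to the dimmest level well above background, slide, session and replicate blocks, the mean of a gene's probes, and leaving out arrays. The number of arrays limits the precision.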

Additional observations from a re-analysis of the deposited data

Results flagged for a closer look

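In 3 of 40 sets of values (10 genes in 4 groups), 1 array lay far from the others of its group, where chance gives about 1 in 20. Cd44 in GF WT replicate 5 at day 0 was 9.43, and the other 5 arrays lay between 10.49 and 10.84. That array also had a low fibroblast score, -1.41. Rnf43 in GF WT replicate 1 at day 7 was 10.36 against 9.66 to 9.76 in the other 3 arrays. This is the array labelled GF WT with a Card9 signal. Cd44 in GF WT replicate 5 at day 7 was 10.14 against 9.02 to 9.19, and its fibroblast score was the highest of the day. What sets these arrays apart was not tested.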

How the results depend on the processing

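In limma, 0 genes passed under any alternative run: 27 for the 10 genes at day 0, 19 for 9 genes at day 7 (18 for Axin2, without Lgr5), and 27 for the difference between the days in the 6 genes with a shared probe. Over all probes, the 12 calls at day 0 became 27 with normexp, 22 with the deposited values, 27 with the stricter filter, 4 with the mean of a gene's probes, and 1 and 3 within the sessions. At day 7 the 0 calls became 1 when GF WT replicate 1 was dropped and 2 when both GF Card9-/- arrays with high pancreas scores were (replicates 2.1 and 6). The Tnfrsf19 probe past the test lost its call within either session. Myc at day 0, Sox9 and Cd44 at day 0, and Smoc2, Axin2, Sox9 and Lrig1 at day 7 had 1 sign throughout. Axin2 at day 7 has no value under the stricter filter.

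Signs turned for small differences, and the cause was not tested. At day 0 these were Rnf43 by the 75th percentile (0.0054); Lgr5 (-0.16), Smoc2 (-0.0228) and Rnf43 (0.13) by the mean of probes; Axin2 (-0.13) and Smoc2 (-0.0258) within session 1, and Rnf43 (0.0398) and Lrig1 (0.0132) within session 2. At day 7, Ascl2 was -0.0023 by the 75th percentile, -0.0109 with normexp, -0.0013 in the deposited values and -0.21 with dim values raised. With slide as a block, Ascl2 was -0.16, Ephb2 -0.0506 and Rnf43 0.0724. Without replicates 2.1 and 6, Ephb2 was -0.0487 and Myc 0.0056. For the change between the days, Ephb2 was -0.0088 with 1 normalization over both days, and with the slide block Cd44 was -0.14 and Ephb2 -0.0967.

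Leaving out 1 array, or the slide of GF WT replicate 6, gave at day 0 -5e-04 to 0.26 for Ascl2, -0.0678 to 0.17 for Axin2, -0.0474 to 0.19 for Smoc2, -0.0176 to 0.0353 for Ephb2, -0.16 to 0.046 for Rnf43 and -0.46 to 0.0848 for the brightest Tnfrsf19 probe. At day 7 it gave -0.16 to 0.24 for Ascl2 (-0.0039 without 2.1), -0.0305 to 0.16 for Ephb2, -0.10 to 0.0549 for Myc (lowest -0.0747 with replicate 2.1 kept) and -0.29 to 0.11 for Cd44 (0.0194 without 2.1). At day 0, Lgr5 ran from 1e-04 (without GF WT replicate 5) to 0.13 (replicate 2) and Lrig1 from -0.18 (replicate 6) to -0.056 (replicate 1). Signs held but sizes moved by over 1.5 times for Smoc2 (-0.59 to -0.17) and Rnf43 (-0.36 to -0.092) at day 7, and for Sox9 at day 7 also with the slide (-0.46) and replicate (-0.42) blocks. The change between the days ran from -0.33 to 0.0688 for Ascl2 and from -0.0936 to 0.0935 for Ephb2 (-0.0542 without 2.1).

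Same-numbered arrays of the labels had r over 0.1 in 3 of 6 pairs at day 0 (-0.022 to 0.37) and in 1 of 2 at day 7 (0.029 and 0.11), and the array correlated best with its own number in 2 and 1. The numbers were therefore not taken as pairs. With the replicate block, 7 probes passed at day 0, and Rnf43 at day 0 was 0.0152, Ascl2 at day 7 -0.35 and Cd44 at day 7 0.43. Signal over background limits Lgr5, Ascl2 and Axin2 at day 7, and Nog, Dkk2, Sfrp2, Tcf7 and Tnfrsf19 among the listed genes. It also limits Sfrp1 at day 0.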
